A study of Mus musculus with 12 samples.

Results

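Chromosome 3 was examined gene by gene in RNA of wild-type and ΔCdk8 mouse embryonic stem cells (ESCs). The members were the genes that the deposited tables place on chromosome 3 and that had a mean of at least 1 TPM (transcript abundance scaled for length and library size) in the 3 uninduced wild-type libraries. Of 1331 genes listed on the chromosome, 530 reached that level, 26 of these were left out by name, and 504 members remained, out of 25759 genes in the tables. The 26 were genes of named families or functions, such as ribosomal protein and S100 genes. A further 801 genes were below the minimum, of which 347 had no read in any library. The chromosome itself was chosen by its measured level in the ΔCdk8 clones, so the difference between clones and wild type is given below as a description without a test.

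The parental line, HATX3, is a diploidised ESC line of haploid origin in which doxycycline switches on Xist. The 4 groups of 3 libraries were wild-type cells without doxycycline, wild-type cells after 48 h with doxycycline, and ΔCdk8 clones 8, 11 and 15 in the same 2 states. All groups carry the inducible Xist allele and its transactivator. The ΔCdk8 cells lack a short stretch of Cdk8 with the start codon. Each mutant line is 1 clone, so that a clone stands for itself and for no other, and the wild-type samples are of the parental line. Nothing in the labels says whether the wild-type samples came from separate cultures, so that p-values measure only the spread between these samples.

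In cells of 1 type, the genes of a chromosome are transcribed largely one by one under their own promoters. Neighbouring genes share chromatin domains but not, as a rule, a common level of expression. A displacement of most genes of a chromosome in the same direction is therefore read from the median over many genes, not from any single gene. Genes on chromosome 3 serve ordinary cell functions such as the cell cycle, RNA processing, translation, proteolysis and metabolism.

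Promoter sequences show what members of the chromosome share or do not share at their start sites, and 4 are printed because they hold different motifs and belong to members that range from well above to well below wild type. They are the 100 bases before the RefSeq start site in GRCm38.p6, 5′ to 3′, and capitals mark 3 motifs on either strand. The GC box was searched as GGGCGG. For the CCAAT box its own letters were used. The TATA box was searched as TATAAA. The members were picked after their values were seen. Capza1 encodes a subunit of the actin capping protein (minus strand, chr3:104864506-104864605). Adh5 encodes an alcohol dehydrogenase that clears formaldehyde (plus strand, chr3:138442993-138443092). Cct3 encodes a subunit of the cytosolic chaperonin (plus strand, chr3:88297035-88297134), and Ankrd34a an ankyrin repeat protein (plus strand, chr3:96596536-96596635).
Capza1: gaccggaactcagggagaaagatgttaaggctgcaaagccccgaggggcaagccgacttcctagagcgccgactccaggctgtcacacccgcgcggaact
Adh5: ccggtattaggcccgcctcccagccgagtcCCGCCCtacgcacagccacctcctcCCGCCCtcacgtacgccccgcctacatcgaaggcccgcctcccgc
Cct3: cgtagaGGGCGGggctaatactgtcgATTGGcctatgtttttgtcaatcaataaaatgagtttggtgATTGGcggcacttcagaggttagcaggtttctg
Ankrd34a: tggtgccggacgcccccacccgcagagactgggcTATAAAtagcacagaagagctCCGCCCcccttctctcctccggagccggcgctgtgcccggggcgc

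The Capza1 stretch held none of the 3 motifs and the Adh5 stretch held 2 GC boxes. A TATA box and a GC box were found before Ankrd34a, and 1 GC box and 2 CCAAT boxes before Cct3. RefSeq promoters from 250 bases before to 50 after the start were matched by symbol, chromosome and strand to 404 members. A GC box was found in 65.8% of them, against 68.0% of the promoters of 8435 other expressed autosomal genes and 35.7% of all 32851 promoters in the table. The CCAAT box stood in 38.1% of member promoters, 39.6% of the other expressed genes and 37.4% of all. The TATA box stood in 7.43%, 6.13% and 13.6%. A match says only that these letters occur in the window.

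The 12 libraries held between 22170087 and 60798578 reads on genes. Of 10 ESC marker genes, all had at least 1 TPM in every library, but their levels differed between clones. Pou5f1 was at 1091 to 1353 TPM in uninduced wild type and at 1126, 1779 and 713 TPM in uninduced clones 8, 11 and 15. Sall4 (83.6, 186 and 76.5 TPM) and Fgf4 (119.7, 213 and 124 TPM) were below the wild-type range in clones 8 and 15 and above it in clone 11, and Utf1 was below it in clone 15. Nanog (403, 321 and 192 TPM), Esrrb (176, 145 and 121 TPM) and Klf4 (71.6, 84.7 and 54.7 TPM) were above the wild-type range in all 3 uninduced clones. Of 7 mesoderm and fibroblast markers, only Thy1 had at least 1 TPM in every library, and the summed level of the list was 8.95 to 17.6 TPM in uninduced and 5.93 to 14.98 TPM in induced wild-type libraries, 17.98 to 29.7 TPM in uninduced clones and 19.5 to 32.6 TPM in induced ones, highest in clone 11. Its collagen genes Col1a1 and Col1a2 were at 3.36 and 3.67 TPM in uninduced and 1.91 and 3.48 TPM in induced clone 15, and at most at 0.625 and 0.539 TPM in uninduced and 1.35 and 0.874 TPM in induced wild type. Its genes T, Mesp1, Col3a1 and Twist2 were under 1 TPM in all 12 libraries, and the part of these markers in the values below was not tested. Primitive endoderm markers summed to 6.11 to 7.55 TPM in uninduced wild type and to 5.68, 11.4 and 10.9 TPM in uninduced clones 8, 11 and 15. Induced, they summed to 5.65 to 9.32 TPM in wild type and to 6.58, 10.7 and 11.5 TPM in the clones. Neural markers summed to 49.5 to 159 TPM over all libraries. Cdk8 itself was at 64.2, 69.4 and 74.2 TPM in uninduced wild-type cells and at 34.4, 56.8 and 85.3 TPM in uninduced clones 8, 11 and 15. Reads on Cdk8 count transcripts outside the deleted stretch too, so they do not check the genotype.

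For each gene and library, the log2 ratio of TPM to the mean of the uninduced wild-type libraries was taken, and the median ratio of 10829 genes on the other autosomes in that library was subtracted. This difference is called the excess, and the chromosome 3 excess is its median over the 504 members. The uninduced wild-type libraries enter their own reference, so that their values lie close to 0 by construction. In uninduced conditions clones 8 and 15 stood above wild type over the whole chromosome and clone 11 did not. The chromosome 3 excess was 0.52 in clone 8 and 0.67 in clone 15 (log2), that is a typical member at 1.44 and 1.59 times its wild-type level relative to the other autosomes. It was −0.02 in clone 11. In bulk RNA such as this, more RNA per cell and more cells of a kind that expresses a gene cannot be told apart. The 3 uninduced wild-type libraries were at 0.07, −0.03 and −0.03.

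The same order was found with Xist induced. The excess was 0.51 in clone 8, −0.06 in clone 11 and 0.71 in clone 15 after 48 h, and 0.05, −0.08 and −0.08 in the induced wild-type samples. Averaged over clones it was 0.39 ± 0.36 (s.d., n = 3 clones) uninduced and 0.39 ± 0.40 induced. These means describe no single clone, since they were 0.60 and 0.61 without clone 11 and 0.25 and 0.22 without clone 15. Without the subtraction, the median member was at 1.55, 0.969 and 1.78 times its wild-type TPM in uninduced clones 8, 11 and 15. Members made up 2.51% to 2.64% of all TPM in uninduced wild-type cells, 3.85% in clone 8, 2.55% in clone 11 and 4.11% in clone 15.

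Among the 19 autosomes, chromosome 3 ranked first in all 4 libraries of clones 8 and 15 and 16th in both libraries of clone 11. The autosome nearest to it was chromosome 14, with an excess of 0.49, 0.57 and 0.61 in uninduced clones 8, 11 and 15, so that it was displaced in all 3 clones where chromosome 3 was displaced in 2. Leaving chromosomes 3 and 14 aside, the highest autosome was at 0.05 in clone 8 and 0.11 in clone 15. Chromosome 6 was at −0.56 in clone 11. DNA copy number was not measured in these data.

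**Figure D1:**
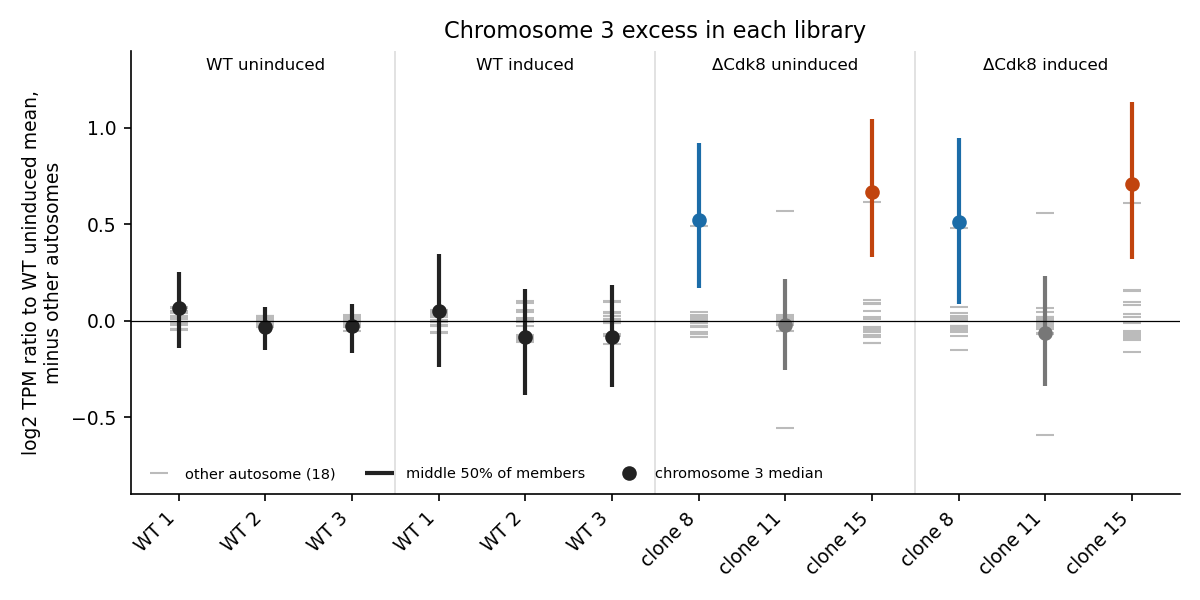
Points give the chromosome 3 excess (log2 TPM ratio to the uninduced wild-type mean, minus the median of the other autosomes) in each of the 12 libraries, vertical bars the middle 50% of the 504 members, and grey ticks the medians of the 18 other autosomes. Clones 8 and 15 lie between 0.51 and 0.71 in both states, and clone 11 and the wild-type samples between −0.08 and 0.07.

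The displacement was a property of most members and not of a few. Members with an excess above 0 made up 83.5% in uninduced clone 8 and 90.1% in uninduced clone 15, against 46.8% in clone 11. The other autosomal genes are centred on 0 by construction. The middle 50% of members ran from 0.17 to 0.92 in clone 8 and from 0.33 to 1.05 in clone 15. Excesses over 1 were found for 104 members (20.6%) in clone 8 and 137 (27.2%) in clone 15, and for 9.85% and 8.55% of the other autosomal genes. At the other end, 15 members in clone 8 (2.98%) and 11 in clone 15 (2.18%) were below −1, against 6.49% and 6.39% of the other autosomal genes.

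Single values did not overlap between the 2 clones and the rest for most members. TPM was higher in uninduced clones 8 and 15 than in uninduced clone 11 and all 3 wild-type samples for 379 of 504 members (75.2%), where 33% of all 11801 genes at the TPM minimum had that order. It was lower for 6 members (1.19%), against 12.6% of all genes. With clone 11 grouped with the other clones, 113 members (22.4%) were above and 7 (1.39%) below the wild-type range, against 15.1% and 7.67% of all genes. Over all 12 libraries, the 4 of clones 8 and 15 were above the other 8 for 302 members (59.9%) and for 16.2% of the other autosomal genes. The chromosome was chosen for this contrast, so nothing further is read from these counts.

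The displacement ran from end to end. Members spanned chromosome 3 from position 5560188 to 159938664 of GRCm38, with at most 5020570 bases between successive starts. In 8 windows of 20 Mb the median excess of members was 0.35 to 0.67 in uninduced clone 8 and 0.56 to 0.84 in clone 15, and it was −0.16 to 0.07 in clone 11. In 16 windows of 10 Mb, which held 8 to 88 members each, it was 0.32 to 0.87 in clone 8, 0.38 to 1.07 in clone 15 and −0.37 to 0.10 in clone 11. Every one of these windows was above 0 in the 4 libraries of clones 8 and 15.

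Both ends took part. The first 10 members, from Pex2, a peroxisome assembly factor, to Fabp5, a fatty acid-binding protein, had a median excess of 0.92 in uninduced clone 8 and 1.01 in clone 15. The last 10 members, from Tyw3, a tRNA-modifying enzyme, to Wls, which carries Wnt proteins to the cell surface, had 0.51 and 0.64. In clone 11 the same members were at −0.00 and 0.01. No more than 3 successive members were at or below 0 in either uninduced clone, and the longest unbroken run above 0 was 36 members in clone 8 and 51 in clone 15. In clone 11 the longest runs were 8 members above and 16 at or below 0.

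**Figure D2:**
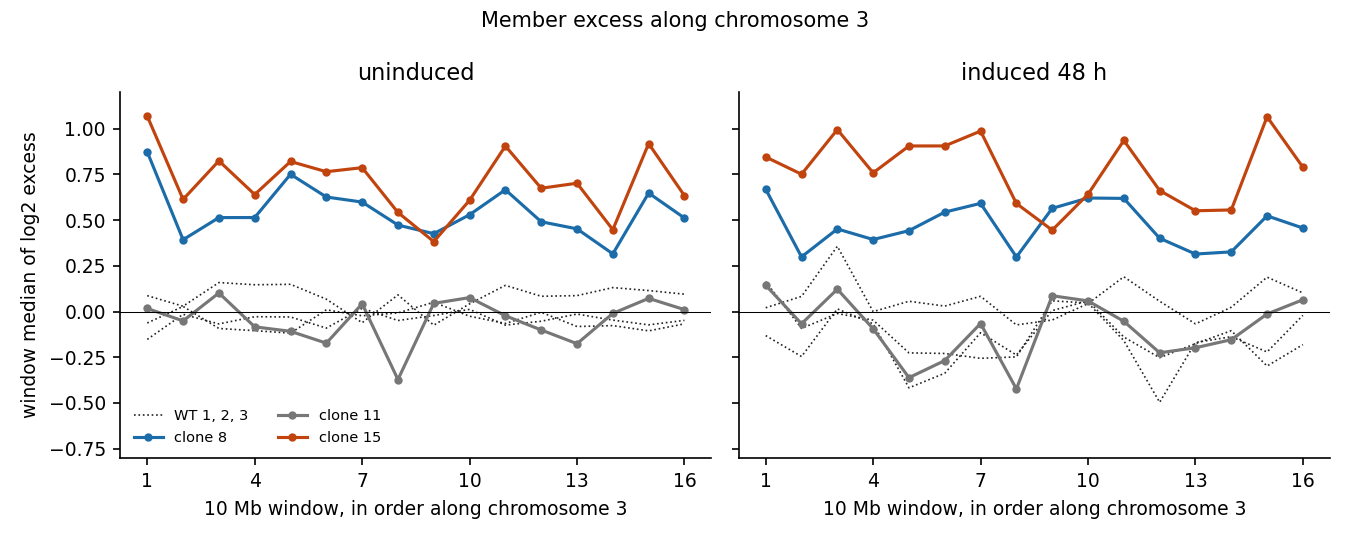
Lines give the median excess (log2) of the members in each of 16 windows of 10 Mb, numbered in order along chromosome 3, for clones 8, 11 and 15 and the wild-type samples, uninduced on the left and induced for 48 h on the right. Clones 8 and 15 stay above 0 in every window, from 0.30 to 1.07 over both states, while clone 11 lies between −0.37 and 0.10 uninduced, with its lowest value at window 8.

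The most abundant member of each 20 Mb window serves as a landmark. Stmn2, a tubulin-binding protein, in the first window was at 172, 198 and 121 TPM in uninduced wild-type samples and at 349, 292 and 401 TPM in clones 8, 11 and 15, so that all clones were higher. Eif2a, an initiation factor, was at 153, 150 and 156 TPM in wild type and at 183, 153 and 235 TPM in the clones. Ppid, a cyclophilin, was at 352, 318 and 344 TPM against 451, 281 and 486 TPM. Clones 8 and 15 stood above the wild-type range for both genes, while clone 11 was inside it for Eif2a and below it for Ppid.

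All landmarks but Stmn2 were below the chromosome median in clones 8 and 15. Actl6a, an actin-related subunit of chromatin remodelling complexes, had an excess of 0.32, 0.18 and 0.34 in uninduced clones 8, 11 and 15. Cct3 had 0.16, −0.03 and 0.30, and the proteasome subunit Psma5 had 0.18, 0.03 and 0.29. The splicing factor Srsf11, near the far end, was at 159, 160 and 159 TPM in wild type and at 186, 159 and 191 TPM in the clones, an excess of 0.11, 0.02 and 0.09. H2afz, which encodes the histone variant H2A.Z and was the most abundant member, had 0.17, 0.19 and −0.18, so that clone 15 was the lowest clone for it.

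Abundant members were displaced less than scarce ones, and so were abundant genes elsewhere. With members split into 3 equal bins by wild-type TPM, the median excess in uninduced clone 8 was 0.72 for the lowest bin, 0.56 for the middle and 0.40 for the highest, and in clone 15 it was 0.91, 0.70 and 0.48. The other autosomal genes of the same TPM ranges were at 0.27, 0.04 and −0.16 in clone 8 and at 0.32, 0.03 and −0.18 in clone 15. Set against genes of like abundance, members stood 0.45, 0.52 and 0.56 higher in clone 8 and 0.59, 0.67 and 0.66 higher in clone 15. In clone 11 the corresponding values were 0.00, −0.06 and −0.00. Induced, members stood 0.32, 0.54 and 0.55 higher in clone 8 and 0.57, 0.72 and 0.68 higher in clone 15.

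Members were also split by other features of the genes. Against other autosomal genes in the same range of exon length, members stood 0.50 to 0.56 higher in uninduced clone 8 and 0.61 to 0.76 higher in clone 15 over 3 bins. By gene length the ranges were 0.47 to 0.57 and 0.61 to 0.67. Members on the plus strand stood 0.50 and 0.68 higher, and those on the minus strand 0.54 and 0.65 higher. In 3 bins of promoter GC content the values were 0.62, 0.50 and 0.44 from the lowest to the highest in clone 8, and 0.66, 0.72 and 0.63 in clone 15. Members with a GC box in the promoter had a median excess of 0.53 and 0.69, and those without one 0.50 and 0.59. With a CCAAT box the medians were 0.58 and 0.69, and without one 0.46 and 0.66. The 30 members with a TATA box were at 0.40 in both clones, those without one at 0.52 in clone 8 and 0.68 in clone 15.

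Reads on introns gave a further view of the same libraries, as they come largely from RNA that has not been spliced. For the 403 members with a mean of at least 20 intron reads in uninduced wild-type libraries, the intron excess was 0.58 in clone 8, 0.02 in clone 11 and 0.62 in clone 15. The excess from TPM over the same genes was 0.53, −0.00 and 0.64. Intron reads were 4.77% to 7.59% of all gene reads, with 6.87% in uninduced clone 8 and 4.77% to 5.54% in uninduced wild type.

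By role, the median excess differed between lists, which were not matched for abundance and not tested against each other. Each list was written from general knowledge, with earlier results of these data known, and only its members on chromosome 3 count. Some entries fit the name of their list only loosely, such as Capza1 under signalling and Cyr61 under metabolism. The 504 members had a median of 0.52 in uninduced clone 8 and 0.67 in clone 15. The 25 genes of the metabolism and redox list had 0.75 and 0.68. For the 19 trafficking and secretion genes the medians were 0.68 and 0.69, and for the 24 signalling genes 0.57 and 0.76. The 14 cell cycle and genome maintenance genes had 0.43 and 0.60, and the 30 chromatin and transcription genes 0.40 and 0.52. The lowest medians were those of the 16 proteasome and ubiquitin genes (0.33 and 0.36), the 16 translation genes (0.22 and 0.44) and the 28 RNA processing genes (0.22 and 0.29). In clone 11 the medians of the 8 lists lay between −0.14 and 0.07.

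**Figure D3:**
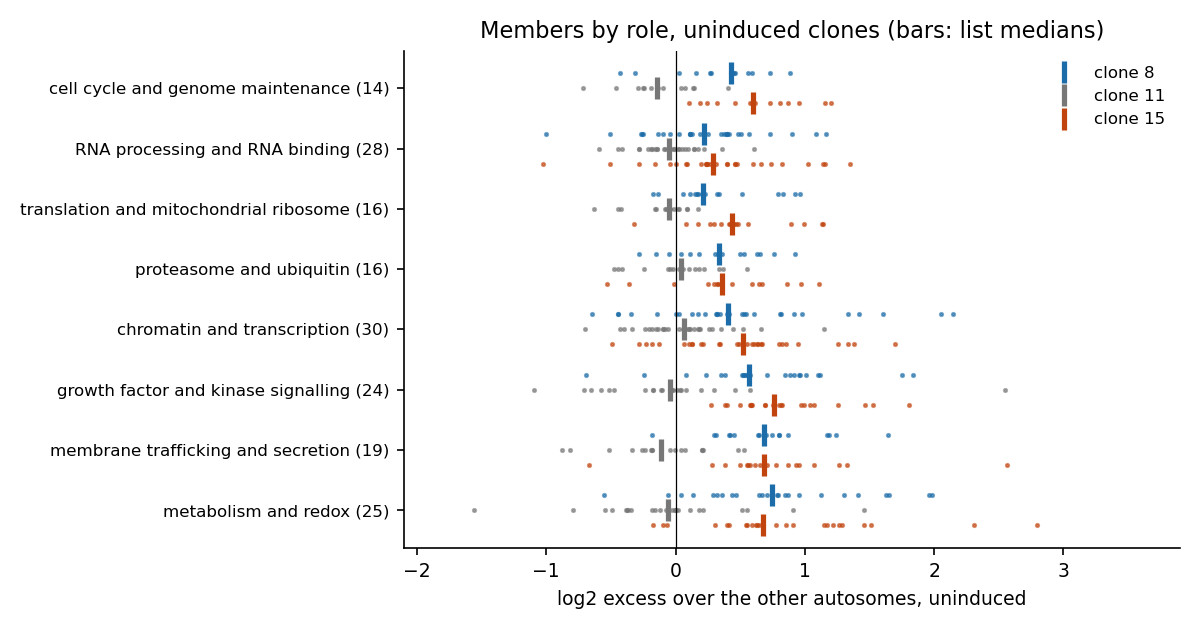
Dots give the excess (log2, horizontal axis) of each member in uninduced clones 8, 11 and 15, grouped by role, with the number of members in brackets, and upright bars give the median of each list. The medians of clones 8 and 15 lie right of 0 in all 8 lists, from 0.22 to 0.76, and those of clone 11 between −0.14 and 0.07.

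In the cell cycle list, 12 of 14 members were above 0 in uninduced clone 8 and all 14 in clone 15. Ccna2, which encodes cyclin A2, was at 218, 196 and 194 TPM in uninduced wild-type samples and at 363, 210 and 416 TPM in clones 8, 11 and 15. The clone 11 value fell within the wild-type range and the other two were about 1.79 and 2.05 times the wild-type mean. Cks1b, a small subunit of cyclin-dependent kinases, was at 280, 275 and 298 TPM in wild type and at 369, 236 and 378 TPM in the clones.

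Of the RNA processing genes, 20 of 28 were above 0 in clone 8 and 23 in clone 15. Ilf2, a subunit of an RNA-binding complex, had an excess of 0.35, 0.07 and 0.40 in uninduced clones 8, 11 and 15. Of the translation genes, 14 of 16 were above 0 in clone 8 and 15 in clone 15. Sars, the cytosolic seryl-tRNA synthetase, was at 203, 144 and 124 TPM in wild type and at 329, 153 and 386 TPM in the clones. Clone 11 was within the wild-type range of Sars and the other two above it. Ssr2, a subunit of the translocon-associated complex, did not follow, at 328, 333 and 358 TPM in wild type against 381, 300 and 305 TPM.

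The proteasome and chromatin lists held small displacements in their most abundant genes. Psmb4, a core proteasome subunit, had an excess of 0.36, 0.06 and 0.33 in uninduced clones 8, 11 and 15, and 13 of 16 genes of its list were above 0 in each of clones 8 and 15. Hdgf, a nuclear growth factor, had 0.23, −0.15 and 0.21, and 25 of 30 genes of the chromatin list were above 0 in each of the same clones.

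All 24 members of the signalling list were above 0 in uninduced clone 15 and 22 were in clone 8. Capza1 was at 133, 134 and 132 TPM in wild type and at 204, 121 and 265 TPM in clones 8, 11 and 15. Gnai3, an inhibitory G protein subunit, was at 154, 147 and 143 TPM against 208, 123 and 268 TPM. For both genes clone 11 was below the wild-type range and clones 8 and 15 above it.

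Atp5f1, a subunit of mitochondrial ATP synthase, had close wild-type values and shows the pattern plainly. It was at 318, 308 and 301 TPM in uninduced wild-type samples and at 574, 298 and 626 TPM in clones 8, 11 and 15. Induced, it was at 290, 287 and 272 TPM in wild type and at 539, 298 and 589 TPM in the clones. Ostc, a subunit of the oligosaccharyltransferase, had an excess of 0.31, −0.19 and 0.56. Adh5 had 0.29, 0.02 and 0.41.

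**Figure D4:**
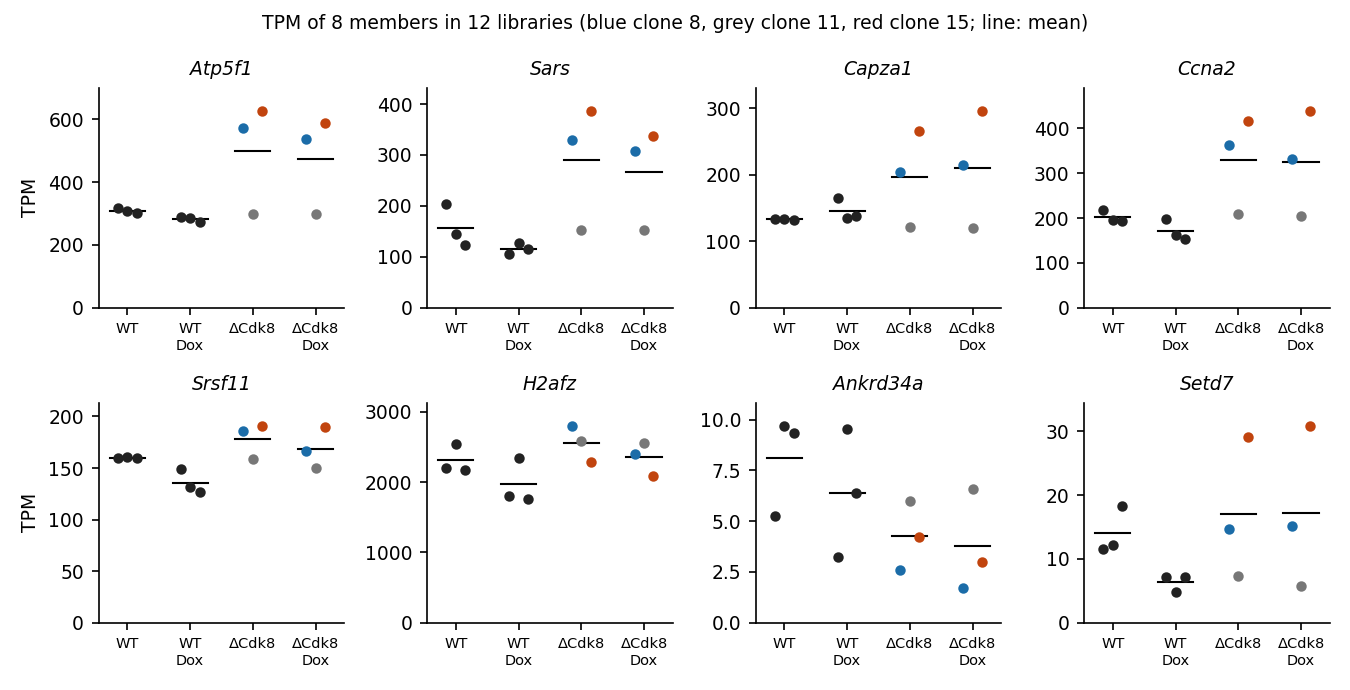
Each panel gives TPM from 0 upwards for 1 member in the 12 libraries, with wild-type samples in black, clones 8, 11 and 15 in blue, grey and red, and a line at the mean of each group of 3. Atp5f1, Sars, Capza1 and Ccna2 are higher in clones 8 and 15 than in clone 11 in both states, Srsf11 has the same order with smaller steps, H2afz is not highest in clone 15, Ankrd34a is lower in clones 8 and 15, and Setd7 is lower in induced than in uninduced wild-type samples.

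The members with the highest mean excess over the 3 uninduced clones, among 400 with at least 5 TPM in wild type, were high in clone 11 as well. They were Cth, Ppm1j, Wwtr1, Vangl1 and B3galnt1. Clone 11 entered this mean, so the ranking itself favours members that are high in it. Cth, an enzyme that makes cysteine from cystathionine, was at 159, 29.8 and 45.1 TPM in wild type and at 332, 210 and 434 TPM in clones 8, 11 and 15. Its wild-type samples differed widely, with sample 1 the highest, and all 3 clones lay above them. Wwtr1, a transcriptional coactivator of the Hippo pathway, was at 11.7, 4.89 and 4.62 TPM against 33.8, 12.9 and 40.5 TPM. Ppm1j, a phosphatase, had an excess of 2.19, 1.37 and 1.95, Vangl1, a planar polarity protein, 2.31, 1.28 and 1.79, and B3galnt1, a glycosyltransferase, 2.08, 1.32 and 1.93.

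The lowest were Ddit4l, Car3, Car14, Crabp2 and Ankrd34a. Clone 11 had a negative excess for each of them, which the ranking favours in the same way. Its TPM was within the uninduced wild-type range for Car3 and Ankrd34a, and that of clone 15 for Car3 and Crabp2. Ddit4l, an inhibitor of mTOR signalling, was at 5.14, 7.36 and 12.2 TPM in uninduced wild type and at 0.57, 4.24 and 0.57 TPM in clones 8, 11 and 15. The carbonic anhydrase gene Car14 was at 11.95, 25.3 and 20.1 TPM against 4.55, 4.68 and 8.74 TPM. Crabp2, which binds retinoic acid, had an excess of −1.74, −1.60 and −0.86. Car3, another carbonic anhydrase, had −4.05, −1.20 and −1.48, with wild-type sample 1 at 1.49 TPM and the other two at 7.13 and 7.68 TPM. Ankrd34a was at 5.27, 9.68 and 9.37 TPM in wild type and 2.58, 5.98 and 4.23 TPM in the clones.

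The widest range between the uninduced clones was found for Ddit4l, Car3, Sohlh2, Anxa5 and Cyr61. Sohlh2, a germ cell transcription factor, was at 7.19, 7.54 and 5.69 TPM in wild type and at 36.8, 4.73 and 48.4 TPM in clones 8, 11 and 15. Cyr61, a secreted matrix protein, was at 10.5, 15.1 and 30.2 TPM against 77.9, 16.1 and 145 TPM. Anxa5, which binds phosphatidylserine, was at 23.6, 8.23 and 10.9 TPM against 48.0, 9.78 and 94.6 TPM. In these 3 genes clones 8 and 15 lay above every wild-type sample and clone 11 within or below the wild-type range.

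Members that went against the chromosome were few. At or below 0 in all 4 libraries of clones 8 and 15 were 33 members (6.55%), against 34.3% of the other autosomal genes. Above 0 in all 4 were 361 members (71.6%), against 34.6% of the other autosomal genes. Of the 33, 27 were at or below 0 in uninduced clone 11 as well, where 46.8% of all members were above 0. By role, 5 of 28 RNA processing genes (Gpatch4, Sf3b4, Wdr3, Larp7 and Gar1), 2 of 30 chromatin genes (Jade1 and Prmt6), 2 of 25 metabolic genes (Ampd2 and Gclm) and Trim2 of the ubiquitin genes were among them. Cell cycle, translation, signalling and trafficking had 0 each. Beside the genes below −1 in all 4 libraries, which were Car3, Car14, Ankrd34a, Fam212b and Ddit4l, 2 further examples were Zmat3, a p53-induced RNA-binding protein, with −1.25 in uninduced clone 8 and −0.99 in clone 15, and Psrc1, a spindle protein, with −1.09 in each. Genes in this paragraph outside the lists of extremes were named after their values were seen.

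The minimum of 1 TPM lies where single genes vary widely. Just inside it were Bcan, at 1.01 TPM in wild type with an excess of 2.35, −0.09 and 1.51 in uninduced clones 8, 11 and 15, and Gbp2, also at 1.01 TPM, with 1.00, −0.42 and 2.70. Just outside it, Slc7a11 had −0.62, −2.44 and 0.89, and Pcdh18 had −3.98, −2.68 and −1.11.

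Clones can be compared with each other without any wild-type library. Clone 8 stood above clone 11 by a median of 0.53 over members when uninduced and 0.55 when induced, each with the median of the other autosomes subtracted. Clone 15 stood above clone 11 by 0.63 and 0.73, and clone 8 below clone 15 by a median of −0.11 and −0.17. Members above 0 in both states numbered 416 (82.5%) for clone 8 over clone 11 and 432 (85.7%) for clone 15 over clone 11, against 43.8% and 43.1% of the other autosomal genes. Across the 504 members, Pearson's r of the uninduced with the induced ratio was 0.78 for clone 8 over 11, 0.61 for 15 over 11 and 0.74 for 8 over 15. Pearson's r was 0.87, 0.80 and 0.74 across the other autosomal genes. By rank (Spearman) the members were at 0.87, 0.88 and 0.82. Clone 15 over 11 was thus the lowest pair by Pearson's r and the highest by rank. The members share libraries and are not independent, so these are descriptions. Set against the induced wild-type samples in place of the uninduced, the excess of induced clones 8, 11 and 15 was 0.59, −0.00 and 0.76.

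**Figure D5:**
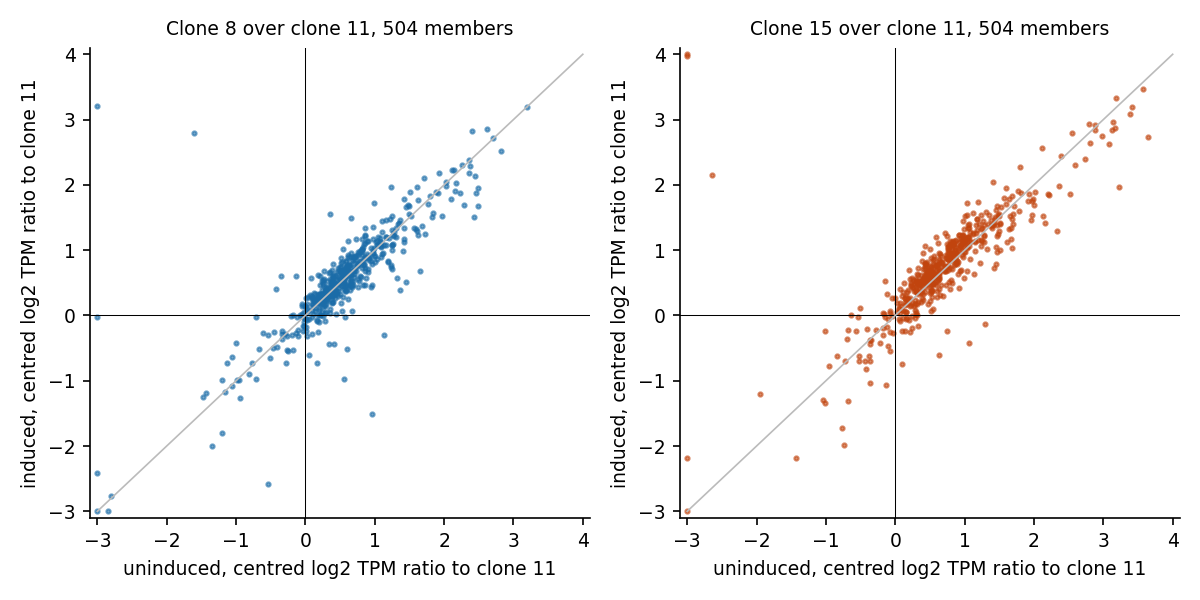
Each dot is 1 of 504 members, with the log2 TPM ratio of clone 8 (left) or clone 15 (right) to clone 11, centred on the other autosomes, uninduced on the horizontal and induced on the vertical axis; 5 and 4 members beyond −3 or 4 are drawn at the limits. Most dots lie in the upper right part along the diagonal, around medians of 0.53 and 0.55 for clone 8 and 0.63 and 0.73 for clone 15.

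Whether Xist induction itself moved chromosome 3 was tested gene by gene, since induction was not used to choose the chromosome. The median over members of the induced to uninduced log2 ratio, less that of the other autosomes, was −0.02, −0.04 and −0.05 in wild-type samples 1, 2 and 3, a mean of −0.04 ± 0.02 (s.d., n = 3). In clones 8, 11 and 15 it was −0.02, −0.03 and 0.04, a mean of −0.01 ± 0.04. All of these were smaller than the gap between clones.

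In wild-type cells, 0 of 501 members tested changed more than 2-fold at an adjusted p below 0.01 (edgeR quasi-likelihood test, Benjamini-Hochberg adjusted), where 0.15% of all 14006 genes rose and 1.01% fell. Unadjusted p was under 0.05 for 100 members (19.96%) and for 21.2% of all genes, and DESeq2 called 12 members (2.4%) and 4.73% of all genes. At an adjusted p under 0.05 with no fold minimum, 14 members (2.79%) and 4.56% of all genes passed, and with no filter beyond 1 count 1 member and 0.967% of all genes. With the replicate number as a block, which takes same-numbered samples as pairs, 6 members rose and 3 fell. Of all genes, 1.47% rose and 2.48% fell. The counts depended on single samples. Without sample 1, 34 members (6.79%) and 8.13% of all genes passed with the block, and 10 members (2%) and 3.99% of all genes without it. With the block, 0 members and 0.306% of all genes passed without sample 2, and 3 members (0.598%) and 2.64% of all genes passed without sample 3.

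Among the blocked calls, Mab21l3 was at 1.63, 1.38 and 1.52 TPM uninduced and at 6.61, 3.05 and 4.52 TPM induced, a log2 change of 1.62 ± 0.22 (s.e., edgeR adjusted p = 0.00691). Gipc2, a PDZ domain protein, was at 6.66, 5.001 and 5.88 TPM against 19.1, 13.4 and 12.6 TPM, Anxa5 at 23.6, 8.23 and 10.9 against 47.8, 24.6 and 22.2 TPM, and the membrane peptidase gene Mme at 2.21, 1.66 and 2.51 against 5.73, 3.61 and 4.68 TPM. Kyat3, which encodes an aminotransferase, rose by 1.03 ± 0.13. The remaining one, named beyond the limit of 5 per direction, was Dennd2c, at 26.6, 22.7 and 18.8 TPM against 48.3, 41.8 and 43.7 TPM. Within each numbered pair these genes were higher in the induced library.

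The 3 that fell in wild type were Skil, Setd7 and Sfrp2. Skil, a repressor of TGF-β signalling that is itself switched on by it, was at 115, 85.8 and 83.0 TPM uninduced and 45.6, 43.8 and 46.2 TPM induced. Its log2 change was −1.02 ± 0.13 with the block (edgeR adjusted p = 0.00559) and −1.04 ± 0.15 without it (edgeR adjusted p = 0.0149). Setd7, a lysine methyltransferase, was at 11.5, 12.3 and 18.4 TPM uninduced and 7.16, 4.82 and 7.22 TPM induced. Sfrp2, a secreted Wnt antagonist, went from 9.33, 21.2 and 24.6 TPM to 3.58, 10.1 and 12.1 TPM.

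In the clones, 0 of 502 members passed, with 0% of all 14832 genes rising and 0% falling. Unadjusted p was under 0.05 for 2 members (0.398%) and for 2.64% of all genes, and DESeq2 called 0 members and 0.243% of all genes. With the clone as a block, 1 member fell and 0 rose, where 0.135% of all genes rose and 1.27% fell. That member was Gbp2, an interferon-induced GTPase, at 2.19, 0.74 and 7.47 TPM uninduced and 0.78, 0.325 and 2.67 TPM induced in clones 8, 11 and 15, lower in each clone (log2 change −1.41 ± 0.24, edgeR adjusted p = 0.000561). In wild type Gbp2 was also lower in each induced sample, at 0.832, 0.567 and 1.65 TPM uninduced and 0.124, 0 and 0 TPM induced, without passing the threshold (edgeR adjusted p = 0.0594, and 0.0219 with the block). Without clone 15, 0 members and 1.39% of all genes passed the blocked fit. Without clone 11, 7 members (1.39%) and 1.97% of all genes did, and without clone 8, 1 member and 1.27% of all genes.

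The change on induction differed between genotypes for few members. In the interaction over all 12 libraries, 0 of 504 members passed, with 0% of all 15137 genes positive and 0% negative past the threshold. Unadjusted p was under 0.05 for 10 members (1.98%) and 3.88% of all genes, and DESeq2 called 0 members and 0.218% of all genes. With the block 2 members passed, both with a more positive change in the clones, where 0.78% of all genes were positive and 0.218% negative. They were Mlf1, a myeloid leukaemia factor gene, and Setd7. No member passed with a positive difference without wild-type sample 2 or 3 or without any 1 clone, where 0.0264% to 0.411% of all genes did. Without wild-type sample 1, 14 members (2.78%) and 2.5% of all genes did, and 22 members (4.37%) and 3.84% of all genes in either direction. Without clone 11, 1 member passed with a negative difference, where 0.41% of all genes passed in either direction. Mlf1 was at 11.7, 12.8 and 13.5 TPM in uninduced and 6.60, 7.28 and 4.90 TPM in induced wild-type samples, and at 34.7, 13.3 and 52.2 TPM in uninduced and 38.2, 18.1 and 60.9 TPM in induced clones 8, 11 and 15. Setd7 in the clones was at 14.7, 7.39 and 29.2 TPM uninduced and 15.1, 5.71 and 30.8 TPM induced.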

How the data were processed

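RNA of 12 libraries (4 groups of 3) was polyA-enriched and sequenced by the authors as 125-base single-end stranded reads, aligned in CLC Genomics Workbench 11, without adapter trimming, to the Ensembl GRCm38 genome (release 94). The authors deposited 1 table per library with raw read counts per gene, exon and intron. The TPM values, exon reads per exon length scaled per library, were also made by the authors. Groups, replicate numbers and clones came from the labels.

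Log2 ratios used TPM plus 0.01, which understates the change of scarce genes. Tests used total gene counts with edgeR 4.0.16 in R 4.3.3 (TMM, filterByExpr, two-sided quasi-likelihood F test, Benjamini-Hochberg over all genes tested, s.e. as the log2 change over the square root of F). Calls needed more than a 2-fold change at an adjusted p below 0.01. DESeq2 1.42.0, other filters, exon reads, the block and leaving out each sample were alternatives. Scripts in Python 3.11.15 with numpy 2.4.6, pandas 2.3.3 and matplotlib 3.10.9 computed the rest. The chromosome 3 excess and the edgeR fits were tested on simulated data, and the other steps were not.

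Deviations from the group means were compared between same-numbered libraries. They correlated at r = 0.68, 0.59 and 0.55 in wild type and 0.86, 0.90 and 0.84 in clones. Wild-type samples 2 and 3 also correlated across numbers, at r = 0.39 and 0.19. The labels state no pairing, so that in wild type it was assumed from these values. For the clones the pairing follows from the shared clone.

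The members, lists, named-gene rule and tests were chosen with earlier results of these data known. Named genes were the most abundant member per 20 Mb window, the 5 highest, 5 lowest and 5 most variable between clones among members with at least 5 TPM, the 2 most abundant per list, up to 5 per direction past each induction test, the 2 on each side of the TPM minimum, and Cdk8. Exceptions are stated where they occur. Some genes that the rule names are not reported here. The RPKM and ratio columns of the tables were not used.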

Additional observations from a re-analysis of the deposited data

Results flagged for a closer look

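The change on Xist induction differed between genotypes for Mlf1 and Setd7 in the interaction of genotype and induction when same-numbered libraries were blocked. The log2 change was more positive in the clones than in wild type by 1.32 ± 0.20 for Mlf1 (edgeR adjusted p = 0.00671) and by 1.07 ± 0.18 for Setd7 (edgeR adjusted p = 0.00993). Without the block the differences were 1.27 ± 0.60 and 1.15 ± 0.69 (edgeR adjusted p = 1.00 for each). Both genes were lower after induction in 3 of 3 wild-type samples. In the clones Mlf1 was higher after induction in 3 of 3, and Setd7 in clones 8 and 15 but not 11. With the block, neither passed without wild-type sample 2 or 3 or without any 1 of the clones.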

How the results depend on the processing

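The mean chromosome 3 excess over clones kept its direction under all 15 alternatives in each state, including other TPM minimums, no name left out, TMM-scaled reads, unique reads and no subtraction (0.47 uninduced, 0.45 induced). Leaving out 1 sample moved it between 0.25 and 0.60 uninduced and between 0.22 and 0.61 induced. Over 12 alternatives the excess lay between 0.49 and 0.63 in uninduced clone 8, −0.05 and 0.02 in clone 11 and 0.64 and 0.83 in clone 15.

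The counts of members called on induction depended on the fit, from a count of 0 in each comparison. In wild-type cells the count was 9 (1.8% of members, 3.95% of all genes) with the replicate block, 14 (2.79%, 4.56%) at an adjusted p under 0.05 with no fold minimum, 12 (2.4%, 4.73%) with DESeq2 and 1 (0.198%, 0.967%) with no filter beyond 1 count. It was 0 with exon reads, 0 to 10 when 1 sample was left out, and 0 to 34 when 1 was left out with the replicate block, where at the highest count 6.79% of members and 8.13% of all genes passed. In the clones it was 1 (0.199%, 1.4%) with the block and 0 to 7 with the block and 1 clone left out. In the interaction it was 2 (0.397%, 0.998%) with the block and 0 to 22 with the block and 1 sample left out. Alternatives that left out samples with the block were chosen after seeing the data. The cause was not tested.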
